A study of Mus musculus with 3 samples.

Results

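Chromatin accessibility was examined around 10 genes of the fibroblast growth factor (FGF) pathway, namely the ligands Fgf3, Fgf4, Fgf8, Fgf15 and Fgf17, the feedback inhibitors Spry2, Spry4 and Dusp6, and the transcription factors Etv4 and Etv5. These are 10 of 21938 annotated coding genes, chosen for their place in the pathway. Each gene was taken with its gene body and 50 kb on either side (GENCODE M21 annotation on mm10). Accessibility was read by ATAC-seq, a method that inserts sequencing adaptors into exposed DNA with a transposase, and a peak is a stretch called as accessible in 1 sample. Peaks of the 3 samples that overlapped were merged into regions, and 187 of 219473 merged regions lay in these windows. The windows of Fgf3, Fgf4 and Fgf15 overlap on chromosome 7, so the 10 windows form 8 stretches with a joint length of 973 kb, in which each region was counted once.

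All 3 samples were mouse embryonic stem (ES) cell derivatives of the HM1 line (strain 129), differentiated for 72 h under conditions that give caudal epiblast-like cells (CEpiLCs). Every sample received 10 ng/ml bFGF throughout, a ligand that itself activates the pathway, together with 5 µM LGK974, an inhibitor of WNT secretion, and from day 2 to day 3 the WNT activator CHIR99021. CEpiLC denotes the wild-type sample. Both other samples were SOX2 TetON cells (genotype Sox2-/-), in which the endogenous Sox2 gene was ablated and a doxycycline-inducible Sox2 transgene supplied the protein. Doxycycline (1 µg/ml) was present in the ES cell culture of this line and was kept during differentiation in SOX2-ON and withdrawn in SOX2-OFF. SOX2 protein already made can outlast the withdrawal of doxycycline, so SOX2-OFF is a state after withdrawal and not a genetic null at every time, and both states come from a single engineered line. There was 1 sample in each group. No difference below can be set against a spread between replicates, no test between groups was possible, and every comparison is between these 3 samples. With bulk material, accessibility in fewer cells and lower accessibility in each cell cannot be told apart.

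FGF ligands bind receptor tyrosine kinases and signal through RAS and ERK. The pathway limits itself: Sprouty proteins (Spry2, Spry4) interrupt the relay from receptor to ERK, and the phosphatase DUSP6 removes the activating phosphates from ERK. Etv4 and Etv5 encode ETS transcription factors that are induced by FGF signalling, so the inhibitors and both ETS genes are commonly read as indicators of pathway activity. In the embryo Fgf4 is a ligand of the epiblast, whereas Fgf8, Fgf3, Fgf15 and Fgf17 are expressed in the primitive streak, caudal tissues or brain signalling centres, and Fgf8 is a defining signal of the caudal epiblast and tail bud.

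The deposited lists held 129843 peaks (SOX2-ON), 131520 peaks (SOX2-OFF) and 130348 peaks (CEpiLC), and sequencing depth was unknown from the lists. Peak strength was the −log10 p of the peak caller, which grows with depth, so each peak was placed by its rank within its own list and ranks are given as percentiles (100 is the strongest peak of the list). Sox2 itself had a promoter peak in every list, at percentile 92.5 (SOX2-ON), 91.0 (SOX2-OFF) and 90.4 (CEpiLC). Accessibility at the Sox2 promoter does not check the genotype labels, because a disrupted coding sequence can keep an accessible promoter. The presence of a promoter peak did not separate cell types either. All 10 epiblast and caudal epiblast markers, all 8 naive pluripotency markers, all 5 endoderm markers and 5 of 6 markers of feeder fibroblasts (all but Col3a1) had one in every list. Ranks differed more than presence, with a median percentile of 84.1 (SOX2-ON), 89.8 (SOX2-OFF) and 89.4 (CEpiLC) for the epiblast and caudal epiblast markers and of 94.0, 92.2 and 90.8 for the naive markers. Feeder markers had the order of the epiblast set (85.6, 91.6 and 90.6), and endoderm markers that of the naive set (89.1, 87.8 and 86.8). Ranks thus did not separate these cell types either. Single genes went against their set, such as Pou5f1 (93.6, 92.2 and 89.5) and the naive marker Tfcp2l1 (93.7, 96.1 and 96.4). The CEpiLC list held 22008 peaks on chromosome 11, against 7276 in SOX2-ON and 7457 in SOX2-OFF. Etv4 is the only one of the 10 genes on that chromosome, and the part of this excess in the Etv4 results was not tested. Without chromosomes 6, 8 and 11 the lists held 87166 (SOX2-ON), 88032 (SOX2-OFF) and 96094 (CEpiLC) peaks. By these totals, chromosomes 6 and 8 together held more peaks in SOX2-ON and SOX2-OFF than in CEpiLC, the reverse of chromosome 11. The cause was not tested. Percentiles within a whole list and shares of all regions count these peaks unless stated otherwise. None of the 10 genes lies on chromosome 6 or 8.

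Promoters of all 10 genes were accessible in every sample. A peak lay within 1 kb of an annotated start for 10 of 10 genes in all 3 lists, as it did for 71.8% of all coding genes. The ligand promoters ranked below those of the inhibitors and transcription factors. In SOX2-ON the ligands lay at percentiles from 58.1 to 90.7 and the other 5 genes from 95.6 to 99.0. The corresponding ranges were 61.8 to 89.4 and 94.5 to 96.6 in SOX2-OFF, and 17.7 to 88.3 and 90.6 to 99.2 in CEpiLC. These ranges did not overlap in any of the 3 samples. The median coding promoter with a peak in all lists stood at 94.1 (SOX2-ON), 94.2 (SOX2-OFF) and 93.9 (CEpiLC), so all 5 ligand promoters were weaker than the typical coding promoter in every sample.

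**Figure D1:**
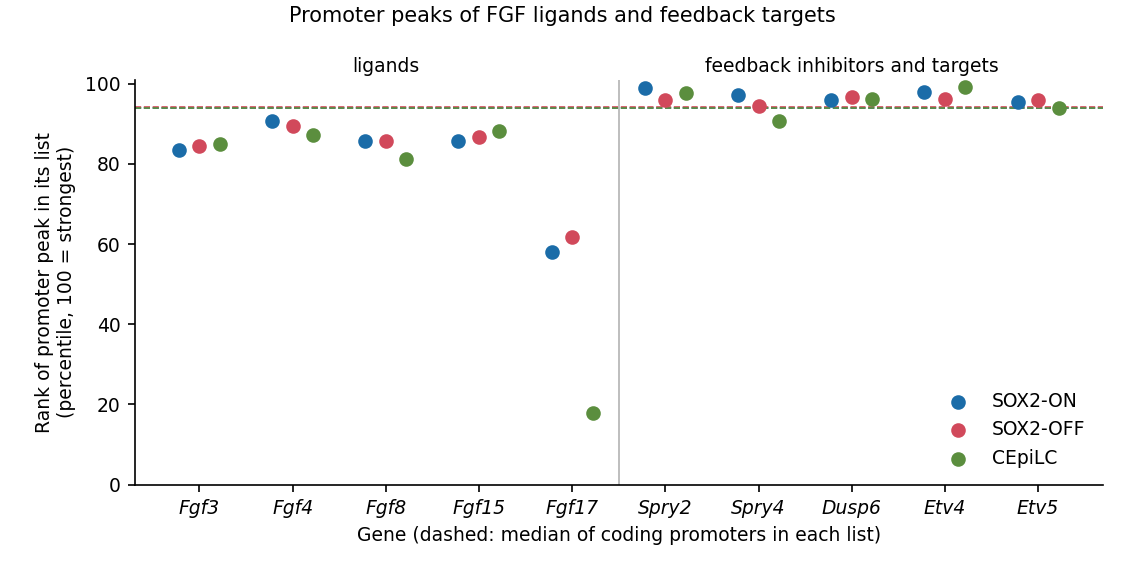
Rank of the strongest promoter peak of each gene within its own list, as a percentile (vertical axis), for 10 genes (horizontal axis). Each dot is 1 sample and dashed lines are the medians of 15748 coding promoters. The ligand dots lie at 90.7 or lower and those of the other 5 genes at 90.6 or higher, with no overlap within a sample.

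Among the ligands, the Fgf4 promoter ranked highest in SOX2-ON and lower in the other samples, at percentile 90.7 (SOX2-ON), 89.4 (SOX2-OFF) and 87.2 (CEpiLC). The Fgf15 promoter took the opposite order, at 85.6 (SOX2-ON), 86.8 (SOX2-OFF) and 88.3 (CEpiLC). Fgf3 was at 83.4, 84.5 and 85.1 in the same order of samples. These steps lay within the range that coding promoters in general covered: between CEpiLC and SOX2-ON, 90% of 15748 coding promoters differed by −5.87 to 10.6 points. The Fgf8 promoter was at 85.7 in both SOX2-ON and SOX2-OFF and at 81.2 in CEpiLC, the sample in which a caudal identity was induced in unmodified cells.

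Fgf17 had the weakest promoter of the set. Its peak stood at percentile 58.1 (SOX2-ON), 61.8 (SOX2-OFF) and 17.7 (CEpiLC), with widths of 776, 1731 and 263 bp. In CEpiLC the merged region held another peak of 281 bp at percentile 58.5, which began 1014 bp upstream of the start and so fell just outside the 1 kb limit. The low CEpiLC value therefore concerns where the calls fell as well as how strong they were. In SOX2-OFF a single broad peak spanned the stretch that the caller divided in CEpiLC. By fold enrichment the Fgf17 promoter was at 46.5 (SOX2-ON), 9.34 (SOX2-OFF) and 0.533 (CEpiLC).

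Of the feedback inhibitors, Spry2 and Spry4 had their strongest promoter peaks in SOX2-ON. The Spry2 promoter was peak number 1272 (SOX2-ON), 5457 (SOX2-OFF) and 2896 (CEpiLC) of its list. This corresponded to percentiles of 99.0, 95.9 and 97.8, and the drop of 3.17 points from SOX2-ON to SOX2-OFF was deeper than that of all but 4.56% of coding promoters. Spry4 was at 97.3 (SOX2-ON), 94.5 (SOX2-OFF) and 90.6 (CEpiLC). Set against the coding promoters of the same list, Spry4 exceeded 75.0% (SOX2-ON), 52.0% (SOX2-OFF) and 31.1% (CEpiLC) of them. The drop of Spry4 from SOX2-ON to SOX2-OFF was 2.82 points, and all but 5.48% of coding promoters dropped less or rose. Dusp6 stayed within 1 point, at 95.9, 96.6 and 96.3. The 3 inhibitors thus did not share a direction between SOX2-ON and SOX2-OFF.

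The Etv4 promoter was at percentile 97.9 (SOX2-ON), 96.1 (SOX2-OFF) and 99.2 (CEpiLC), where it was peak number 1046 of the list. Ranked among peaks of chromosome 11 alone, it stood at 97.4, 95.3 and 99.2, in the same order of samples. The Etv5 promoter was at 95.6, 95.9 and 93.9. The 2 ETS genes therefore differed in direction in CEpiLC, Etv4 being highest there and Etv5 lowest. By fold enrichment Etv4 was again highest in CEpiLC (93.8, 92.6 and 94.9), and Etv5 was lowest in SOX2-ON (88.9, 90.9 and 90.5).

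As a set, the promoter peaks were of similar width in the 3 samples. They had a median width of 2000 bp (SOX2-ON), 2041 bp (SOX2-OFF) and 2013 bp (CEpiLC), which was 1.65, 1.54 and 1.71 times the median promoter peak of the respective list. Coding promoters with a peak in every list had a median of 1.10, 1.09 and 1.18 times on the same scale. Dusp6 had wide peaks in all samples, at 2720, 2726 and 2798 bp. Spry2, the highest ranked of the 10 promoters in SOX2-ON only, had narrow peaks of 1142 bp in SOX2-ON and 1037 bp in CEpiLC, and a peak of 2399 bp in SOX2-OFF. RefSeq promoter sequences of 300 bases (GRCm38.p6) were matched for 5 of the 10 genes (Dusp6, Etv5, Fgf3, Fgf4 and Spry2), with 6 promoters in all. Their median GC content was 61.3%, against 56.3% for 21263 promoters of coding genes, and their ratio of observed to expected CpG was 0.788 against 0.567.

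The other genes of the pathway, counted from lists and not picked by value, had promoter peaks almost throughout. The lists of 5 FGF receptors, 6 adaptors and signal relays, 9 other feedback inhibitors and 5 other FGF-responsive genes each had a promoter peak in all 3 samples for every gene. The share over all coding genes was 71.8%. Spry3, also on the list of inhibitors, was not found among the genes used and was not counted. Of 17 other ligands, 15 had one in all lists, and Fgf6 and Fgf7 had none in any. The other ligands had a median percentile of 86.3 (SOX2-ON), 89.6 (SOX2-OFF) and 89.4 (CEpiLC), and the other feedback inhibitors of 97.2, 94.9 and 94.5. The lower median rank of ligand than inhibitor promoters was thus also seen in genes outside the 10. Single genes overlapped there, the inhibitor Spry1 lying at 93.3, 93.2 and 90.9, below the ligand Fgf20. Il17rd, which encodes the inhibitor SEF, was at 99.0, 99.1 and 98.9, and Fgf20 was at 94.7, 97.4 and 96.4.

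Around these promoters, the windows held 113 peaks (SOX2-ON), 125 (SOX2-OFF) and 147 (CEpiLC). The full lists had another order, SOX2-OFF being the longest and CEpiLC lying between it and SOX2-ON. With peaks of −log10 q of at least 5, there were 65 (SOX2-ON), 59 (SOX2-OFF) and 40 (CEpiLC), and within 10 kb of the genes there were 52, 52 and 63. The windows held 116, 128 and 151 peaks per Mb, where the median window of a coding gene held 80.1, 84.0 and 90.6 and the upper quartile was 130, 133 and 145. The density of the joint windows thus lay between the median and the upper quartile in SOX2-ON and SOX2-OFF and above the quartile in CEpiLC. In CEpiLC, 25 of the 147 peaks lay in the Etv4 window on chromosome 11, and 122 remained without chromosomes 6, 8 and 11. Whether the CEpiLC density stays above the quartile without that window was not tested. Dusp6 in CEpiLC, at 76.7 peaks per Mb, was below the median. Strong peaks, the strongest 20000 of each list, numbered 29, 28 and 31 in the windows, or 25.7%, 22.4% and 21.1% of the peaks there, against 15.4%, 15.2% and 15.3% of all peaks. In the Etv4 window the density was 86.5, 147 and 216 peaks per Mb, against a median of 102, 110 and 195 for coding genes on chromosome 11. Away from Etv4, Fgf8 had the largest gain in CEpiLC, with 11 peaks (SOX2-ON), 13 (SOX2-OFF) and 20 (CEpiLC). CEpiLC alone held 8 of the 23 regions in that window, against 20.3% of all merged regions, and all 8 were faint (percentiles 6.60 to 33.9). Strong peaks in the Fgf8 window numbered 3 (SOX2-ON), 5 (SOX2-OFF) and 2 (CEpiLC).

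In the full lists, regions near the 10 genes were shared among samples more often than regions in general. All 3 lists held 77 of 187 regions, or 41.2% (95% Wilson interval 34.4 to 48.3%), against 27% of all merged regions. Without chromosomes 6, 8 and 11 these shares were 44.3% and 31.3%. The gap was narrower among strong peaks, at 44.0% against 41.0% with −log10 q of at least 5 and 48.2% against 41.9% among the strongest 50000 of each list. Part of the windows lay near starts, where sharing was common: 30 of 39 regions within 1 kb of a start were held by all lists (76.9%, against 59.4% of all such regions). Of the 148 regions further from any start, 47 were held by all lists (31.8%, against 20.5%). Regions that both samples of the engineered line held and CEpiLC lacked made up 7 of 187 (3.74%), and 10.5% of all regions. The 10.5% includes chromosomes 6 and 8, where none of the 10 genes lies, and was not computed without them. Together these chromosomes held more peaks in each sample of the engineered line than in CEpiLC. Regions that SOX2-OFF and CEpiLC held and SOX2-ON lacked made up 14 of 187 (7.49%, interval 4.51 to 12.2%), near the 6.92% of all regions. Intervals cover counting error only, since regions are not replicates and neighbouring regions share an environment.

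**Figure D2:**
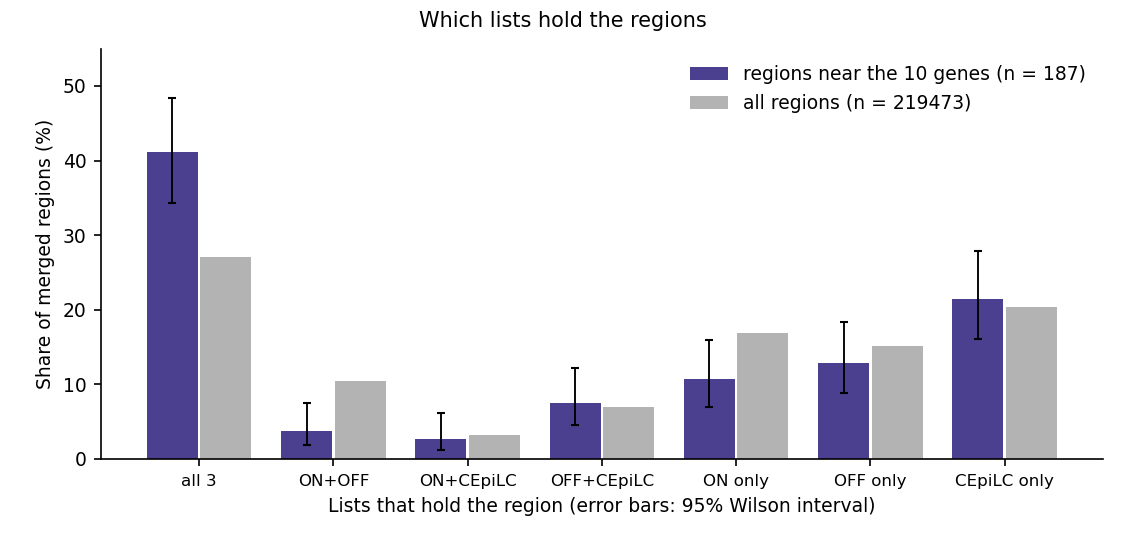
Share of merged regions (vertical axis, %) by the lists that hold them (horizontal axis), for 187 regions near the 10 genes and for all 219473 regions. Error bars are 95% Wilson intervals. Regions held by all 3 lists made up 41.2% near the 10 genes and 27.0% overall.

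Every pairwise count of missing regions near the 10 genes lay below that of the whole list. Of 109 regions of SOX2-ON, 25 were not held by SOX2-OFF (22.9%, background 34.9%) and 27 were not held by CEpiLC (24.8%, background 47.5%). Of 122 regions of SOX2-OFF, 38 were not held by SOX2-ON (31.1%, background 37%) and 31 were not held by CEpiLC (25.4%, background 43%). Of 136 regions of CEpiLC, 54 were not held by SOX2-ON (39.7%, background 47.3%) and 45 were not held by SOX2-OFF (33.1%, background 41%). The 95% Wilson interval contained the background in 3 of the 6, namely regions of SOX2-OFF missing from SOX2-ON (23.6 to 39.8%) and regions of CEpiLC missing from SOX2-ON (31.9 to 48.1%) or from SOX2-OFF (25.7 to 41.4%). These comparisons share samples with one another and are given side by side. Without chromosomes 6, 8 and 11, regions of SOX2-ON were missing from SOX2-OFF in 23.2% (background 35.0%) and from CEpiLC in 25.3% (39.7%). Regions of SOX2-OFF were missing from SOX2-ON in 27.6% (36.7%) and from CEpiLC in 25.7% (33.3%). That 33.3% lies within the interval of the full count (18.5 to 33.8%). Regions of CEpiLC were missing from SOX2-ON in 33.9% (44.7%) and from SOX2-OFF in 30.4% (37.2%).

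Among strong peaks, gains and losses were few. Of 28 regions with a strong peak of SOX2-ON, 1 was not held by SOX2-OFF (background 5.02%) and the same 1 was not held by CEpiLC (background 8.36%). Of 28 regions with a strong peak of SOX2-OFF, 0 were missing from SOX2-ON (background 1.27%) and 0 from CEpiLC (background 1.04%). Of 30 regions with a strong peak of CEpiLC, 2 were missing from SOX2-ON (background 1.35%), both in the Etv4 window, and 0 were missing from SOX2-OFF (background 0.609%). The peaks just below the limit included a pair in the Fgf8 window that SOX2-ON lacked, at percentile 84.2 in CEpiLC and 82.6 in SOX2-OFF. Others there were highest in SOX2-ON, near Spry2 (82.5), Spry4 (78.5) and Fgf4 (75.5).

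In regions held by all 3 lists, shifts of at least 20 percentile points were about as frequent as elsewhere. SOX2-ON exceeded SOX2-OFF by that much in 4 of 77 regions (background 6.31%) and CEpiLC in 7 (background 10.1%). SOX2-OFF exceeded SOX2-ON in 12 of 77 (background 13.6%) and CEpiLC in 8 (background 10.7%). CEpiLC exceeded SOX2-ON in 8 of 77 (background 15.1%) and SOX2-OFF in 6 (background 7.42%). With peaks ranked by fold enrichment, 17 of 77 regions were that much lower in CEpiLC than in SOX2-ON (background 11.7%) and 18 than in SOX2-OFF (background 12.0%). The median shift from SOX2-ON to SOX2-OFF was 0.94 points near the 10 genes and 1.82 points in all shared regions.

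**Figure D3:**
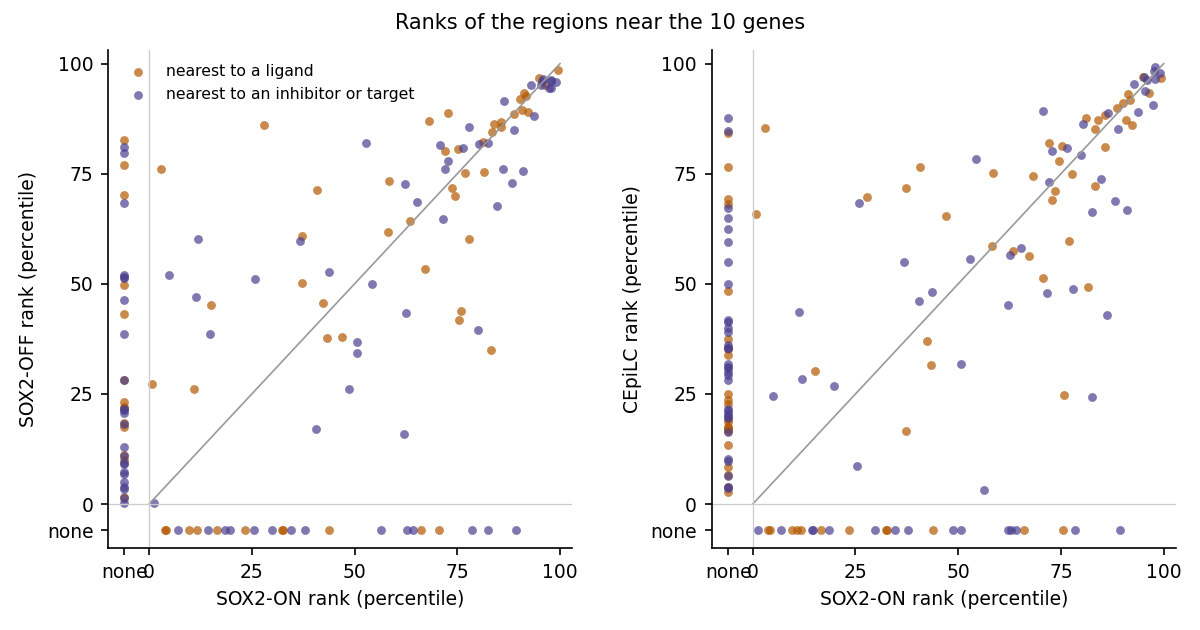
Percentile rank of each region near the 10 genes in SOX2-ON (horizontal axes) and in SOX2-OFF (left) or CEpiLC (right), coloured by whether the nearest of the 10 genes is a ligand. Points at "none" have no peak in that list. The strongest regions lie near the diagonal, and the points furthest above it with a SOX2-ON rank under 30 include the Fgf15 upstream region at 3.0 (SOX2-ON), 76.0 (SOX2-OFF) and 85.4 (CEpiLC).

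A group of differences, picked after its values were seen, lay downstream of Fgf8. The gene is transcribed from the minus strand of chromosome 19, and the SOX2-OFF and CEpiLC lists shared 4 regions in the intergenic DNA that begins beyond it, at 6.80 to 19.3 kb past its start. SOX2-ON held 1 of the 4, and only weakly. The region at chr19:45734862-45735888 stood at percentile 77.0 in SOX2-OFF and 84.2 in CEpiLC, and SOX2-ON had no peak there. Next to it, chr19:45733015-45734151 was at 27.9 (SOX2-ON), 86.1 (SOX2-OFF) and 69.7 (CEpiLC), and its width was 375, 1005 and 1137 bp. Ranked by fold enrichment it was at 14.1, 76.6 and 9.60, so that CEpiLC lay below SOX2-ON on that scale. Further out, chr19:45725669-45726167 was at 70.2 and 68.1 in SOX2-OFF and CEpiLC, and chr19:45722380-45723377 was at 82.6 and 76.6, both without a peak in SOX2-ON. All 4 regions lay over 6 kb from any annotated start and outside annotated genes. A region 2.69 kb upstream of Fgf8 followed the same order, at 40.8 (SOX2-ON), 71.3 (SOX2-OFF) and 76.5 (CEpiLC). The Fgf8 promoter itself was no lower in SOX2-ON than in the other samples (percentiles above). One faint peak, at percentile 3.83 of SOX2-ON, lay in the same stretch in that sample alone.

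**Figure D4:**
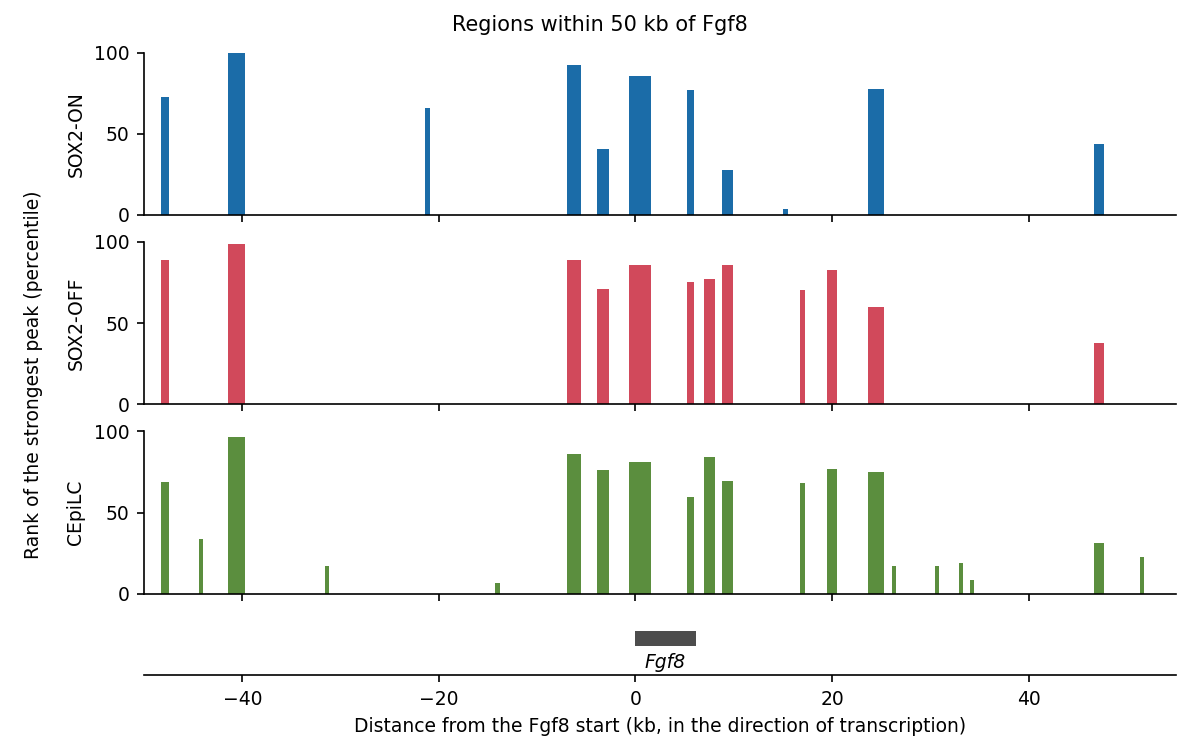
Percentile rank of the strongest peak of each region (vertical axes) in the 3 lists against distance from the Fgf8 start in kb (horizontal axis, bars as wide as the region and at least 0.4 kb). From 6.80 to 19.3 kb past the start, SOX2-OFF and CEpiLC hold 4 regions where SOX2-ON holds 1 of them, at percentile 27.9.

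The Fgf15 locus held the largest shift in any of the 10 windows. The intergenic region chr7:144884734-144885740, 10.8 kb upstream of the Fgf15 start, was at percentile 3.0 (SOX2-ON), 76.0 (SOX2-OFF) and 85.4 (CEpiLC). In SOX2-ON it was close to the weakest peak of the list, whereas in CEpiLC it was among the strong peaks. A second intergenic region 7.05 kb upstream (chr7:144888289-144889484) was at 68.2 (SOX2-ON), 86.9 (SOX2-OFF) and 74.5 (CEpiLC). It was the strongest region away from starts in the windows of both Fgf3 and Fgf4. Nearer to Fgf3, chr7:144811663-144812840, 25.2 kb upstream of that gene, was at 0.7 (SOX2-ON), 27.3 (SOX2-OFF) and 65.8 (CEpiLC). Thus 3 of the regions between and around these clustered ligands ranked lowest in SOX2-ON, 2 of them close to the limit of detection there. By fold enrichment this held for those 2, while the region 7.05 kb upstream of Fgf15 was lowest in CEpiLC, at 67.7, 86.5 and 64.5.

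The sequences at the centres of these regions are shown because they carry the differences just described between SOX2-ON and the other samples. They are mm10 plus-strand stretches of 200 or 300 bases around the middle of the strongest peak. Capitals mark matches to 6 sets of letters searched on both strands: ETS (CCGGAAGT), SOX (AACAATG), TCF/LEF (CTTTGAT), T/BRA (AGGTGTGA), CDX (TTTATGG) and OCT (ATGCAAAT). No 2 of these overlapped within the stretches printed. The first is chr7:144885106-144885405, the second chr7:144811902-144812101, the third chr19:45735207-45735506 and the fourth chr19:45733485-45733684.
Fgf15 upstream region: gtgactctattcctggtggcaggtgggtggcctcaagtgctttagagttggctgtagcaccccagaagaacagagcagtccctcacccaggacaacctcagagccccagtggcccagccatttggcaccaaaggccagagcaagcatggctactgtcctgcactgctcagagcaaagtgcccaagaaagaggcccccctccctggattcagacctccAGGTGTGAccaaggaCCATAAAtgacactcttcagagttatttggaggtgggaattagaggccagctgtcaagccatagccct
Fgf3 upstream region: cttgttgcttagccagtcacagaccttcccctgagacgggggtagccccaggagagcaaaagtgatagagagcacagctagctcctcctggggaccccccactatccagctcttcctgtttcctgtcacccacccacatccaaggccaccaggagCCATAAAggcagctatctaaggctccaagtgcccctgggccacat
Fgf8 downstream region, near: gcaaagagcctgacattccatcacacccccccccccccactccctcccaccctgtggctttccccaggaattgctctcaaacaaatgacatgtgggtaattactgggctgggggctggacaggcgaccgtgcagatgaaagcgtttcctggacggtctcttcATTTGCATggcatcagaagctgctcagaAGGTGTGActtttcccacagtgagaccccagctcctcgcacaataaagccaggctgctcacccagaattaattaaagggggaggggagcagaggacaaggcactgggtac
Fgf8 downstream region, next: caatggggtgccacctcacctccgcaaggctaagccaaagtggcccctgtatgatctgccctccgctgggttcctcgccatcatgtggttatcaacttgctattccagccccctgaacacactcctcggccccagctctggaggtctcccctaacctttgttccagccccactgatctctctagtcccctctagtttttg

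The Fgf15 upstream stretch held the T/BRA letters at base 218 and, on the reverse strand, the CDX letters at base 233. T (Brachyury) and CDX proteins are transcription factors of the caudal epiblast. The near Fgf8 downstream stretch held OCT letters at base 163, on the reverse strand, and T/BRA letters at base 191. The Fgf3 upstream stretch held the CDX letters at base 156, and the next Fgf8 stretch held none of the 6. Over the central 300 bases of all merged regions, the T/BRA letters occurred in 1.67% and the CDX letters in 3.26%. Near the 10 genes they occurred in 7 and 14 of 187 regions, or 3.74% and 7.49%. The SOX letters occurred in 13 of 187 regions (6.95%, against 4.79% of all). The OCT letters occurred in 7 (3.74%, against 1.90%), the TCF/LEF letters in 14 (7.49%, against 5.01%) and the ETS letters in 1 (0.535%, against 0.652%). A higher share near the 10 genes was thus not particular to the T/BRA and CDX letters. Among regions held by SOX2-ON alone, the SOX letters occurred in 3 of 20 near the 10 genes and in 8.43% of all such regions. Among those that SOX2-ON alone lacked, they occurred in 0 of 14 and in 3.41%. The T/BRA letters occurred in 2 of 20 regions held by SOX2-ON alone (1.49% of all such regions) and in 1 of 14 that SOX2-ON alone lacked (2.31%). The CDX letters occurred in 1 of 20 (3.17%) and 2 of 14 (3.39%). The counts near the 10 genes are small, and a match of letters is a description of the sequence and not of binding.

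**Figure D5:**
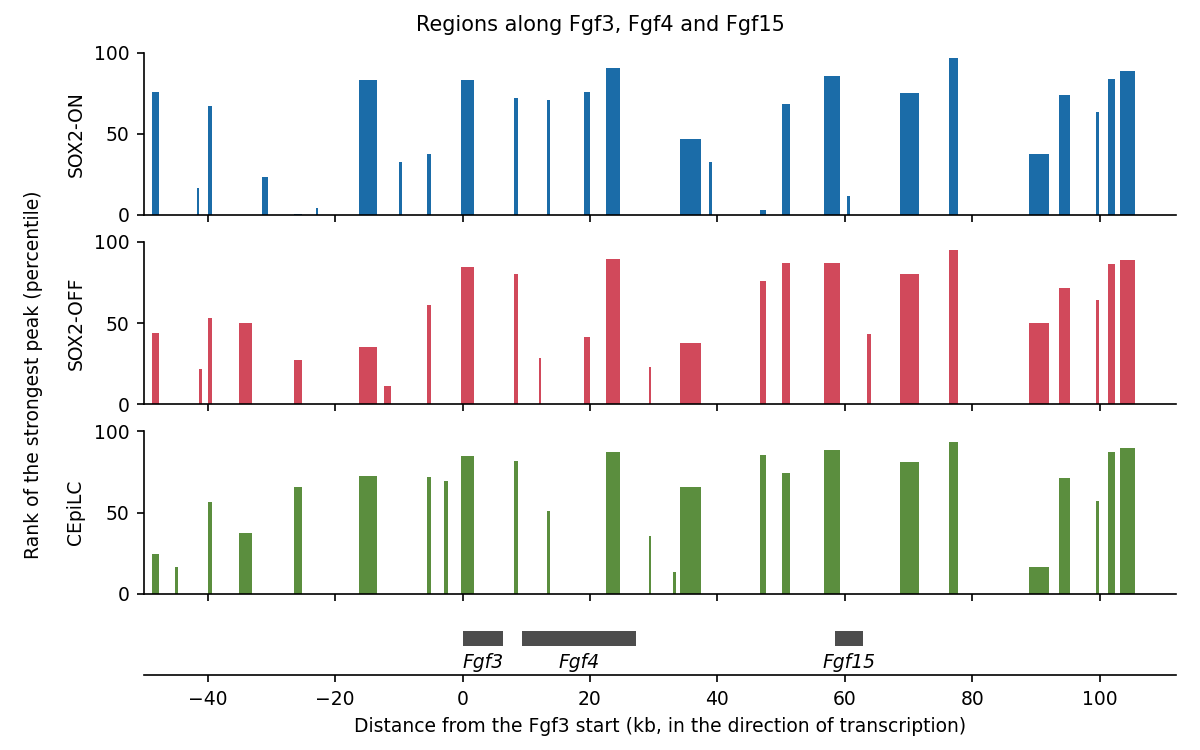
Percentile rank of the strongest peak of each region (vertical axes) in the 3 lists against distance from the Fgf3 start in kb (horizontal axis), with the bodies of Fgf3, Fgf4 and Fgf15 below. The Fgf15 upstream region, at about 47 kb, is at 3.0 (SOX2-ON), 76.0 (SOX2-OFF) and 85.4 (CEpiLC), and all 3 promoters are accessible throughout.

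Fgf4 has a long-studied enhancer in the untranslated part of its last exon, at which SOX2 and OCT4 bind side by side. Its adjoining SOX and POU sites were found at chr7:144864390-144864415 (mm10), 3.01 kb past the nearest start of the gene.
Fgf4 last exon: aactCTTTGTTtggATGCTAATggga
Capitals mark the 2 sites. No peak of any list covered them. The nearest peak was 2020 bp away in both SOX2-ON and SOX2-OFF, and 1644 bp away in CEpiLC. A region in an annotated Fgf4 intron, 3.24 kb upstream of the internal start (chr7:144857125-144858145), was at percentile 75.5 in SOX2-ON, 41.7 in SOX2-OFF and without a peak in CEpiLC. A region 578 bp upstream of the outer Fgf4 start (chr7:144846106-144846789) took the opposite order, at 72.1 (SOX2-ON), 80.1 (SOX2-OFF) and 81.9 (CEpiLC). By fold enrichment the strongest Fgf4 promoter peak was level between SOX2-ON and SOX2-OFF, at 86.9 in both.

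Some regions near the ligands ranked higher in SOX2-ON. The intergenic region chr7:144821766-144824641, 13.4 kb upstream of Fgf3, was at 83.2 (SOX2-ON), 35.1 (SOX2-OFF) and 72.3 (CEpiLC), and 84.3% of its central 300 bases were masked as repeats, where reads are harder to place. At the outer edge of the Fgf3 window, chr7:144789406-144790407 overlapped an exon of Gm34964 and was at 75.8, 43.8 and 24.7. In the Fgf17 window, chr14:70623002-70624848 lay in an intron of Dmtn and was at 81.5 (SOX2-ON), 75.4 (SOX2-OFF) and 49.3 (CEpiLC). The strongest region away from starts near Fgf17 overlapped an Npm2 exon (chr14:70645469-70647855), at 81.1, 82.2 and 87.7, while the strongest near Fgf8 lay 47.5 kb upstream (chr19:45790402-45791135), at 72.9, 88.7 and 69.1. For Fgf15 it was an intergenic region 44.7 kb past the start, which lay at 88.7, 88.7 and 90.0 and 1.31 kb from the start of another gene. A broad region over Ccnd1 and LTO1 exons in the Fgf15 window was at 37.3, 50.2 and 16.5. Several of these lie in or beside other genes, and proximity to a ligand does not assign them to it.

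Around the feedback inhibitors, the 1 strong region that SOX2-ON held alone lay 44.8 kb past the Spry2 start, in intergenic DNA (chr14:105851068-105852063). It was at percentile 89.3 in SOX2-ON with a width of 996 bp, and neither other list had a peak there. Closer to Spry2, 3.91 kb upstream, a peak of 286 bp was at 82.5 in SOX2-ON and 24.3 in CEpiLC, and SOX2-OFF had none. The strongest region away from starts near any of the 10 genes lay 23.4 kb upstream of Spry2 (chr14:105920185-105921532), at 97.8 (SOX2-ON), 94.5 (SOX2-OFF) and 96.6 (CEpiLC). It kept the order of the Spry2 promoter, highest in SOX2-ON and lowest in SOX2-OFF. The central stretch of the SOX2-ON region (chr14:105851466-105851665) is shown as the strong region held by a single list. It held none of the 6 sets of letters. On the reverse strand it did hold the SOX site marked at Fgf4 (CTTTGTT), which was not among them. The same letters lay on the plus strand of the next Fgf8 downstream stretch, whose region ranked lowest in SOX2-ON by −log10 p. Their share over all regions was not computed, so they do not set the SOX2-ON region apart.
Spry2 downstream region: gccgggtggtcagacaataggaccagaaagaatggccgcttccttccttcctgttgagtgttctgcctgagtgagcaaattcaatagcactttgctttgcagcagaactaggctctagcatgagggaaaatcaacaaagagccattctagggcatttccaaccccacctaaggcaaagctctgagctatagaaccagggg

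Distal regions of Spry4 and Dusp6 differed in several patterns. The strongest region away from starts near Spry4 lay 29.8 kb upstream in an intron of another annotated transcript (chr18:38631171-38632597), at 92.9 (SOX2-ON), 95.2 (SOX2-OFF) and 95.4 (CEpiLC). The intergenic region 25.0 kb past the Spry4 start (chr18:38575905-38576456) was at 77.9, 85.6 and 48.8. Its neighbour 27.1 kb past the start (chr18:38572470-38574329) was at 91.1, 75.7 and 66.7, and a region 61.9 kb past the start was at 78.5 in SOX2-ON alone. A region 10.3 kb upstream was low in SOX2-ON, at 11.3, 47.0 and 43.6. Near Dusp6, the strongest such region lay 19.9 kb past the start (chr10:99285542-99288065) and was at 86.1 (SOX2-ON), 76.0 (SOX2-OFF) and 43.0 (CEpiLC). The start of B530045E10Rik, 32.8 kb past the Dusp6 start, was high in SOX2-OFF, at 52.8, 82.0 and 55.5. The Dusp6 promoter was nearly level across the samples while this distal region was not.

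Near the ETS genes, both strong CEpiLC regions that SOX2-ON lacked were intergenic and in the Etv4 window, on chromosome 11. One lay 44.8 kb past the Etv4 start (chr11:101726483-101727409), at 81.1 in SOX2-OFF and 87.6 in CEpiLC. The other lay 15.8 kb upstream (chr11:101801146-101802541), at 79.7 in SOX2-OFF and 84.7 in CEpiLC. SOX2-OFF held both. A region overlapping a Dhx8 exon (chr11:101761751-101762552) was at 25.8 (SOX2-ON), 51.1 (SOX2-OFF) and 68.3 (CEpiLC). The Etv4 window contributed 6 of the 14 regions that SOX2-ON alone lacked, and the Fgf8 window 3, where the 14 were a share close to that of all regions (above).

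Etv5 had differences in both directions. The intergenic region chr16:22455629-22457157, 15.9 kb upstream of its start, was at 80.0 (SOX2-ON), 39.4 (SOX2-OFF) and 79.1 (CEpiLC), so that SOX2-OFF alone was low. A region 37.5 kb upstream, in an intron of Dgkg (chr16:22477251-22477728), was at 11.9, 60.3 and 28.4, so that SOX2-OFF alone was high. Of the central bases of this Dgkg region, 92.3% were masked as repeats, where reads are harder to place. The strongest region away from starts lay within Etv5, in an intron 6.15 kb past the start (chr16:22428388-22430360), at 88.8, 85.0 and 85.1. Its promoter, at 95.6, 95.9 and 93.9, varied less than either of the first 2 regions.

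The central stretch of the intergenic region upstream of Etv4 (chr11:101801675-101801874) is shown for comparison with the ligand regions. Its CDX letters begin at base 182.
Etv4 upstream region: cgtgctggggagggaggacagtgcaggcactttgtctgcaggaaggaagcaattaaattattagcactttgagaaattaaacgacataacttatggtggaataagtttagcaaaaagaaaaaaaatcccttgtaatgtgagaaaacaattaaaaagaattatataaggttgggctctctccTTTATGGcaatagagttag

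The limit of 50 kb was arbitrary. Just inside it, a region 572 bp within the edge of the Fgf17 window was at 10.8 in SOX2-ON and 26.0 in SOX2-OFF. Just outside it, a region 124 bp past the edge of the Spry2 window was at 12.5 in SOX2-ON and had no peak in the other lists.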

How the data were processed

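ATAC-seq had been carried out on 3 mouse samples, 1 per group, grouped by the labelled genotype and doxycycline treatment. Per the paper's methods and the labels, the authors aligned reads to mm10, discarded those of mitochondria and used MACS2 to call broad peaks, with 1 list per sample. The deposited fold enrichment of a peak is its ratio over the caller's background in that library, and the deposited −log10 p and −log10 q come from the same caller. The deposited score repeated the −log10 q and was not used. All values grow with depth, which was unknown, and no control library is described, so only ranks within a list were compared.

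Peaks that overlapped or touched were merged across lists. The strongest peak by −log10 p within 1 kb of a GENCODE M21 start was the promoter peak. Named regions were those with a peak among the strongest 20000 of a list and absent from another, the strongest region over 1 kb from any start for each gene, and the 3 largest rank shifts in each direction of each comparison. Others (the Fgf8, Fgf4, Spry2, Spry4 and Dusp6 regions outside those rules and the window edges) were chosen after their values were seen. The genes, the lists and the alternatives were chosen with earlier results of these data known. Sequences came from GRCm38, the same build as mm10, and promoters from RefSeq. Python 3.11.15, pandas 2.3.3, NumPy 2.4.6, SciPy 1.17.1, pysam 0.24.0 and matplotlib 3.10.9 were used. Merging and ranking were tested on simulated lists. Alternatives were window size, a stricter q, equal list lengths, overlap, other rankings and, added after the data were seen, leaving out chromosomes 6, 8 and 11.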

Additional observations from a re-analysis of the deposited data

How the results depend on the processing

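No paired analysis was possible because no group had more than 1 sample, which also left no replicate to leave out. In each list, all 5 inhibitor and transcription factor promoters ranked above every ligand promoter by −log10 p, by fold enrichment, among promoter peaks, within a chromosome and within 250 bp of a start. The peak counts followed the window and the threshold, given here for SOX2-ON, SOX2-OFF and CEpiLC in turn. They were 52, 52 and 63 with 10 kb windows, 187, 188 and 228 with 100 kb, 65, 59 and 40 with −log10 q of at least 5, and 67, 61 and 64 among the strongest 50000 peaks. With −log10 q of at least 2, CEpiLC fell to 82. The share of regions held by all lists was 54.1% (33.5% of all regions) with −log10 q of at least 2, and 26.2% (15.6%) where 50% of each peak had to be covered. With −log10 q of at least 5 it was 44.0%, near the 41.0% of all regions, and among the strongest 50000 peaks 48.2% (41.9%). Ranking by fold enrichment raised the regions 20 points higher in SOX2-ON to 8 of 77 against SOX2-OFF (7.22% of all shared regions) and 17 of 77 against CEpiLC (11.7%), and those higher in SOX2-OFF than in CEpiLC to 18 of 77 (12.0%). Strong regions missing elsewhere numbered 0 in SOX2-ON and 0 in CEpiLC with 10 kb windows or the strongest 10000 peaks, and, with the strongest 50000, were 9 of 64 in SOX2-ON (25.9% of all such regions), 6 of 60 in SOX2-OFF (17.1%) and 9 of 62 in CEpiLC (17.6%). Without chromosomes 6, 8 and 11 the CEpiLC count was 0, since both regions lay on chromosome 11. Of 74 values for all 10 genes or their windows under these alternatives, 48 stayed within 1.5 times (shares within their interval) and 26 did not. Of 210 values of single genes and regions, 178 stayed within 1.5 times, 30 did not and 2 changed direction. Of 45 shifts of at least 20 points, 45 kept their direction when ranked within a chromosome and 43 by fold enrichment. The exceptions were the Fgf8 downstream region at chr19:45733015-45734151, where CEpiLC minus SOX2-ON became −4.50 points, and a region in the Etv4 window, where CEpiLC minus SOX2-OFF became −10.4 points. The cause of these changes was not tested beyond the construction of each alternative.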

Other observations

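The other ligands, which were not among the 10 genes, were mostly accessible and mostly ranked lower in SOX2-ON. The Fgf10 promoter was at percentile 77.5 (SOX2-ON), 89.6 (SOX2-OFF) and 89.3 (CEpiLC), Fgf5, an epiblast ligand, was at 84.4, 90.1 and 91.3, and Fgf23 was at 75.7, 86.9 and 86.3. Fgf1 was at 53.7, 67.1 and 78.8, whereas Fgf21 was highest in SOX2-OFF at 87.6 and lowest in CEpiLC at 74.8. Among the receptors, Fgfr1 was at 94.8, 94.9 and 91.2, and Fgfrl1, which lacks a kinase domain, was at 97.5, 97.3 and 97.0. Among caudal markers, Cdx2 was at 84.5, 89.6 and 92.3 and T at 83.7, 91.4 and 89.4. Cdx1 (82.8, 89.9 and 91.1) and Nkx1-2 (76.9, 81.6 and 86.4) were also lowest in SOX2-ON. Other caudal markers were not: Wnt3a was highest in SOX2-ON (88.2, 84.8 and 85.5) and Tbx6 lowest in CEpiLC (82.8, 83.4 and 79.2). Each value is from 1 sample.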
